A study of Mus musculus with 2 samples.

Results

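The cytosolic ribosomal protein genes encode the proteins of the small and large ribosomal subunits. They were selected on their symbols (those starting with Rpl or Rps followed by a digit, together with *Rpsa* and the stalk genes *Rplp0*, *Rplp1* and *Rplp2*, without the S6 kinases and without symbols containing -ps) and on a measured value, an RPKM of at least 1 in either library. RPKM scales reads to the length of the transcript and to the reads of the library, so levels can be compared between genes. Of 87 matching symbols 83 were kept, out of 14732 genes listed in at least 1 library and 9925 genes that met the same minimum, here called expressed. The 83 included 77 canonical ribosomal proteins (31 of the small and 46 of the large subunit), 4 paralogs of such proteins (*Rpl22l1*, *Rps27l*, *Rpl36al* and *Rpl7l1*), *Rpl37rt*, which the annotation holds as a transcribed processed pseudogene, and *Rps19bp1*, a Rps19-binding protein that is not itself a ribosomal protein. The lowest values inside the minimum were far above it, at 46.7 in the control library and 44.3 in the Eomes library for *Rps19bp1*. Just outside were *Rpl39l* with 0.32 and 0.07, *Rpl32l* with 0.11 and 0.45, *Rpl10l* with 0.19 and 0.09, and *Rpl3l*, listed only in the Eomes library, at 0.05.

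The values came from CD8+ T cells (spleen and lymph nodes) of OT-I transgenic C57BL/6 mice aged 6-8 wk, which carry a T cell receptor for the peptide SIINFEKL of ovalbumin (OVA). The cells had 24 h of stimulation with 2.5 ng/mL peptide and 10 U/mL IL-2, then received a retrovirus that carried Eomes and human CD2, or the empty vector with human CD2 only (control). After 48 h the human CD2+ cells were sorted, and total RNA was taken after 3 more days with the same peptide and IL-2. Each condition had 1 library, and whether cells of several mice were pooled is not given in the sources used here. The comparison asks how a T cell that carries an excess of Eomes, a T-box transcription factor of effector, memory and exhausted CD8+ T cells, differs from its control. With 1 library per condition no spread between replicates exists, so every difference below is one between 2 libraries, without a test.

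Each ribosome joins a small subunit, which reads the mRNA, to a large subunit, which forms the peptide bond and holds the tunnel through which the new chain leaves. Each subunit needs its proteins in near-equal numbers, and their genes, although spread over the genome, rank among the most highly transcribed in growing cells, activated T cells included. Ribosomal protein mRNAs typically begin with a C followed by a run of pyrimidines, the 5′ terminal oligopyrimidine (TOP) tract, through which the mTOR pathway and the RNA-binding protein Larp1 control their translation and stability.

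The level of *Eomes* went with the labels, at 2.47 RPKM with the empty vector and 129.64 with the Eomes vector, whose own transcript adds to it. All 6 markers of CD8+ T cells were expressed, with a summed RPKM of 1120.3 in the control library and 809 in the Eomes library, and 5 of the 6 were lower in the latter, among them *Cd8a* (181.81 and 99.10). Markers of B cells, CD4+ T cells and erythroid cells did not reach an RPKM of 1, *Klrb1c* of natural killer cells had 0.31 and 5.74, and 1 of 5 myeloid markers, *Cd14*, had 1.39 and 1.12. The part of these markers in the results below was not tested, and in bulk RNA fewer cells of a type and less RNA per cell cannot be told apart. Summed over all genes the RPKM came to 561425 in the control library and 549161 in the Eomes library, a change of -2.18%, and the files give no read counts.

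The TOP tract could be looked for in 63 of the 83 genes, those with a start site in the RefSeq promoter table (assembly GRCm38.p6, the assembly behind mm10). A C at the annotated start followed by at least 4 pyrimidines was found in 13 of the 63 (20.6%), against 2.79% of 7875 other expressed genes and 3.01% of all 27025 genes of the table. Within 5 bases of the start such a run was found in 29 (46%), against 23.7% and 21.2%. The lines below give the start regions of the 9 genes whose run, counted from the annotated start onward, held at least 8 bases. Those of *Rpl39* and *Rpl22l1* follow, the canonical gene with the lowest and the member with the highest log2 ratio. Each line runs from 10 bases before the start to the 20 bases from it, 5′ to 3′ on the strand of the gene. The counted run is in capitals. Pyrimidines directly before it were not counted, and in each of the 9 genes the base before the start was a pyrimidine as well.
Rpl15 (chr14:18270967-18270996, minus strand): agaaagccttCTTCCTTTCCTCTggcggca
Rpl28 (chr7:4792955-4792984, plus strand): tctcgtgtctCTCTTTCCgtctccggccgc
Rpl35 (chr2:39005112-39005141, minus strand): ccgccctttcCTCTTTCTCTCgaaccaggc
Rpl35a (chr16:33056472-33056501, plus strand): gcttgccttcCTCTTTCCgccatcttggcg
Rpl38 (chr11:114668570-114668599, plus strand): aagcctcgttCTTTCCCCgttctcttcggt
Rps6 (chr4:86857348-86857377, minus strand): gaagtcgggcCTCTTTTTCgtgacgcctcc
Rps10 (chr17:27635225-27635254, minus strand): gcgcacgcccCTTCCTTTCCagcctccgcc
Rps15a (chr7:118116128-118116157, minus strand): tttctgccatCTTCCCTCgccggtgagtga
Rps18 (chr17:33955646-33955675, minus strand): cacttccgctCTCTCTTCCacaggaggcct
Rpl39 (chrX:37085203-37085232, minus strand): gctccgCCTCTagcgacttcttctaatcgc
Rpl22l1 (chr3:28805498-28805527, plus strand): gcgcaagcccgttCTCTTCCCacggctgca

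Of the runs counted from the annotated start onward, those of 13 bases in *Rpl15* and 11 bases in *Rpl35* were the longest. In *Rpl39* the counted run of 5 bases began 4 bases before the annotated start. In *Rpl22l1* the counted run of 8 bases began 3 bases after it. Neither thus has a TOP tract in the strict sense at these annotated starts. The 29 genes with a run within 5 bases had a median log2 ratio of Eomes over control of -0.095 (25 of 29 lower) and the 34 without one -0.077 (27 of 34 lower). For other expressed genes the medians were -0.016 with a run and 0 without. GC centring takes the median of expressed genes of similar GC content off each log2 ratio. After it the ribosomal protein genes had medians of -0.046 with a run and -0.048 without, so these groups were about equal. Other expressed genes then had -0.0038 with a run and 0.0018 without.

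Short DNA motifs were also counted on both strands of the 300 bases from 250 before to 50 after each start. The T-box core GGTGTGA, the DNA motif of the family to which Eomes belongs, was in 0 of the 63 promoters, against 4.09% of other expressed genes and 4.6% of the whole table, and this says only that these letters are not in the window. The ETS core CCGGAAG, whose reverse strand CTTCCGG can share its bases with a pyrimidine run, was in 25 (39.7%), against 23% and 9.93%. The E-box CACGTG, a motif of the Myc family, was in 6 (9.52%), against 12.5% and 8.09%. Genes with the ETS core had a median log2 ratio of -0.068 (22 of 25 lower) and those without it -0.082 (30 of 38 lower). The 6 genes with the E-box had -0.14 (6 of 6 lower) and the 57 without it -0.077 (46 of 57 lower). Of all 63 genes 52 were lower. After GC centring the medians with and without the motif were -0.046 and -0.053 for the ETS core. For the E-box they were -0.061 and -0.046. The median was under 0 in each of these groups.

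Ribosomal protein mRNAs were among the most abundant of both libraries. The 83 genes made up 23.6% of all RPKM in the control library and 22.7% in the Eomes library. They took 65 of the 100 highest places in the control library and 63 in the Eomes library, and 12 and 9 of the 20 highest. *Rplp1*, an acidic protein of the stalk that engages elongation factors, was the highest with 5027 in the control library and 4370.4 in the Eomes library, and took rank 3 among all genes in both. Next came *Rps2* at the mRNA entry of the small subunit (4426 and 4143), *Rpl41*, the smallest protein of the ribosome (4156 and 3963), *Rplp0*, the base of the stalk (3379 and 3091), and *Rpl23a* at the tunnel exit (2825 and 2484). All 5 were lower in the Eomes library.

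**Figure D1:**
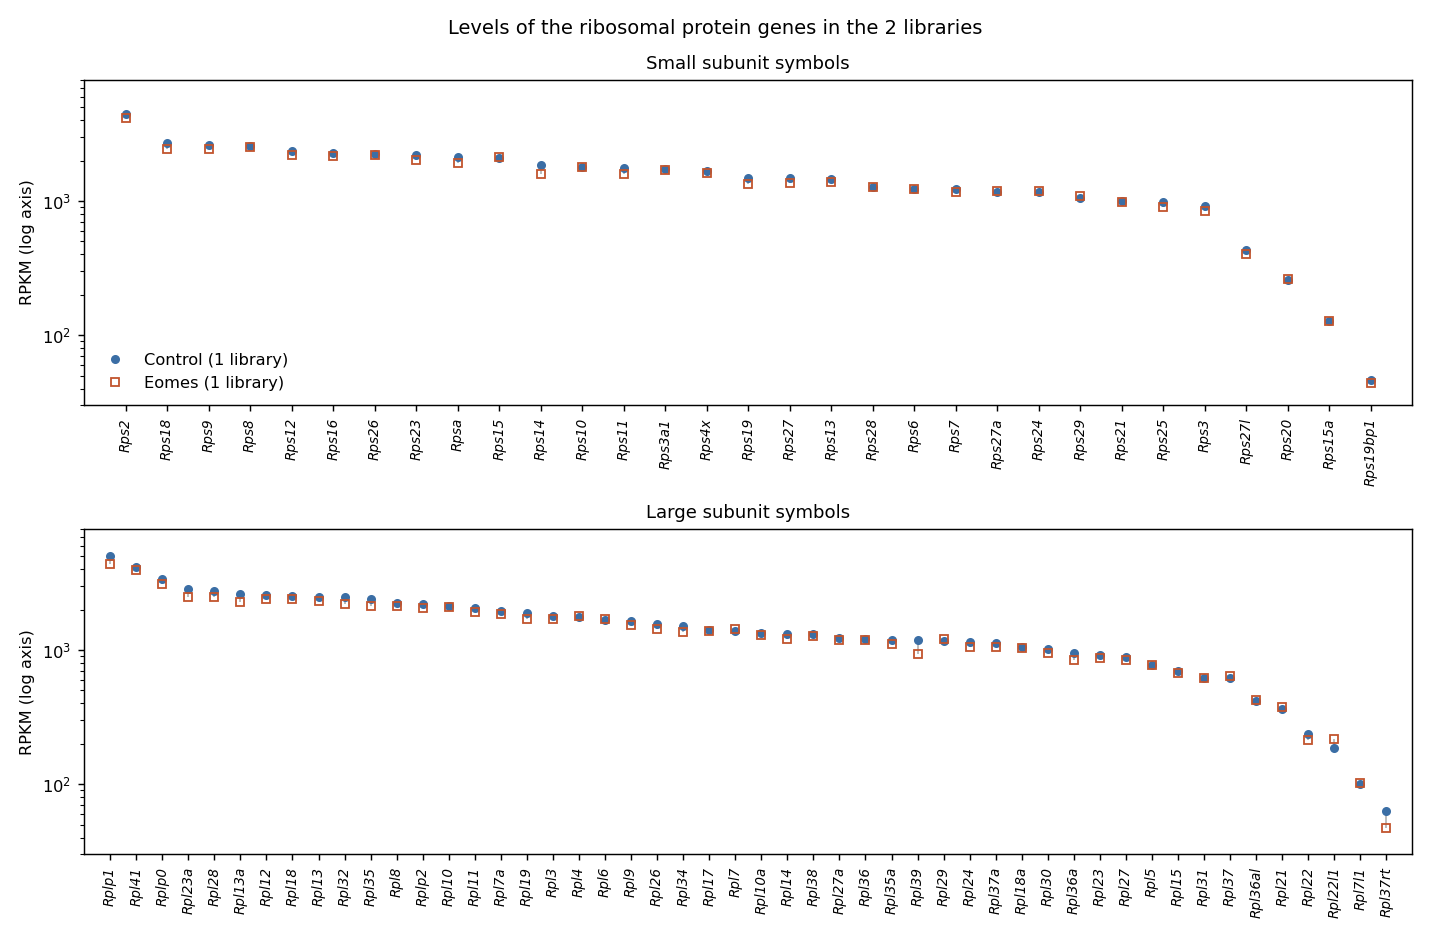
RPKM (log axis) of 81 of the 83 ribosomal protein genes in the control (filled circles) and Eomes (open squares) library for small subunit symbols (top) and large subunit symbols (bottom) in order of the control value. The 2 symbols of a gene mostly overlap, and the levels run from 5027 for *Rplp1* to 46.7 for *Rps19bp1* in the control library.

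Proteins needed in near-equal numbers did not have equal mRNA levels. In control 60 of the 77 canonical genes lay between 1000 and 3000 RPKM, and 57 did in the Eomes library. The highest canonical level was 39.6 times the lowest in the control library and 34.4 times in the Eomes library. The lowest were *Rps15a* (126.88 and 126.92), *Rpl22* (236 and 212), *Rps20* (259 and 263) and *Rpl21* (361 and 377). The reference transcripts of *Rps15a* and *Rps20*, of 5179 and 3706 bases, were the longest among the 83, whose median was 830.0 bases, and a level per kilobase depends on the length it is divided by. The order of the levels hardly moved between the libraries (Spearman's rho 0.993 over 83 genes, which share both libraries and their lengths).

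In the values as deposited most ribosomal protein genes were slightly lower in the Eomes library. Relative to expressed genes of similar length their median was about equal (0.0044, given below). Of the 83 genes 66 had a log2 ratio under 0 and 17 above 0. The background for this count was 50.5% of the 9925 expressed genes under 0, against 79.5% of the ribosomal protein genes. Their median log2 ratio was -0.077 (quartiles -0.13 and -0.018), a change of -5.18%, and that of all expressed genes was -0.0037. Their summed RPKM went from 132485 to 124647 (-5.92%), while that of all other genes changed by -1.03%. Ribosomal protein genes thus made up 63.9% of the net fall in the summed RPKM, in which rises and falls of single genes cancel.

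The differences were small gene by gene. No member was 1.5-fold lower or higher, where 5.19% and 2.46% of expressed genes were. At 1.2-fold 2 members were lower (*Rpl37rt* and *Rpl39*) and 0 higher, against 15.2% and 14.9% of expressed genes. Within 5% of the control value lay 39 members (47.0%), within 10% 70 (84.3%) and within 20% 81 (97.6%), against 25.5%, 46.8% and 73.0% of other expressed genes. The members thus lay closer together than genes at large, with an SD across genes of 0.090 against 0.40 on the log2 scale. At a mean level of 500 RPKM or more the SD was 0.074 across 73 members and 0.21 across the 83 other genes, and the part of level in the spread was not tested.

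**Figure D2:**
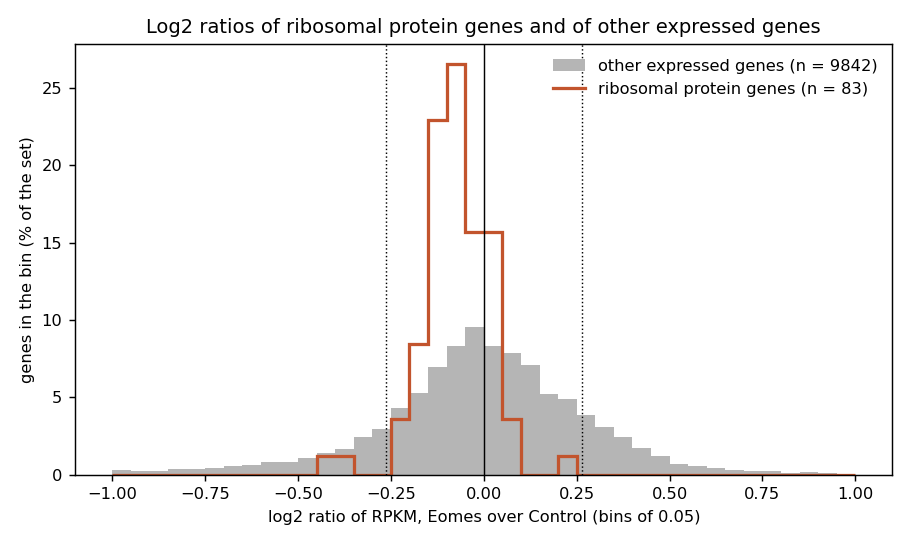
Distribution of the log2 ratio of RPKM (Eomes over control, bins of 0.05) for the 83 ribosomal protein genes (line) and the 9842 other expressed genes (grey), each as a percentage of its set, with dotted lines at 1.2-fold and genes beyond 1 in either direction not drawn. The ribosomal protein genes form a narrow peak just under 0 with 2 genes left of the lower dotted line.

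The lower values were shared by other abundant and other short transcripts. Above a mean level of 500 RPKM, 52 of 83 genes other than ribosomal protein genes were lower, with a median log2 ratio of -0.061, against 62 of 73 ribosomal protein genes with a median of -0.077. At 1000 and above 23 of 35 other genes were lower (median -0.073) and 52 of 62 ribosomal protein genes (median -0.077). Transcript length moved with the ratio across all genes. Of other expressed genes with a reference transcript of at most 1000 bases 67.9% of 574 were lower, with a median of -0.095, and of the 58 ribosomal protein genes in that range 49 (84.5%) were lower, with a median of -0.077. From 1000 to 2000 bases 61.4% of 2152 other genes were lower (median -0.056) and 75% of 20 ribosomal protein genes (median -0.077). Above 2000 bases 45.5% of 7090 other genes were lower (median 0.026) and 40% of 5 ribosomal protein genes (median 0.00045).

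When the median of expressed genes of similar length was taken off each log2 ratio (20 bins), the median of the ribosomal protein genes became 0.0044 and 38 of the 83 (45.8%) stayed under 0. The bins hold the ribosomal protein genes themselves as well. By this pooled median ribosomal protein genes were thus not lower than expressed genes of similar length. In the 2 shorter length classes above, a larger share of them than of other genes was lower. The direction given above holds for the values as deposited. With bins of GC content in place of length the median was -0.045 (58 of 83 under 0) and with bins of mean level -0.039 (56 of 83). Dividing each library by its summed RPKM gave -0.045 (59 of 83).

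**Figure D3:**
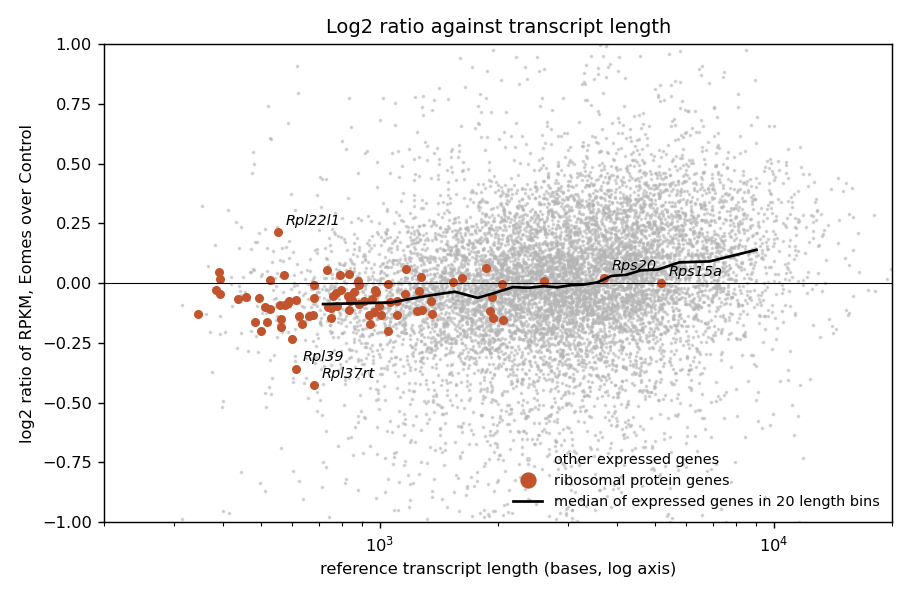
Log2 ratio of RPKM (Eomes over control) against reference transcript length in bases (log axis) for ribosomal protein genes (large points) and other expressed genes (small grey points), with the median of expressed genes in 20 bins of length as a line and points beyond 1 in either direction not drawn. The line lies below 0 for short transcripts and above 0 for long ones, and most ribosomal protein genes lie around its left end.

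Base composition of the transcripts spanned 40.6% to 62.4% GC among the 83 genes, with a median of 50.7%. The 42 genes of lower GC content had a median log2 ratio of -0.052 (29 of 42 lower) and the 41 of higher GC content -0.084 (37 of 41 lower). Across members the log2 ratio was weakly related to GC content (Spearman's rho -0.24) and to level (-0.34), and across 9899 expressed genes rho with GC content was -0.44. All these points share the same pair of libraries. After centring on GC bins the order of the GC groups turned, with medians of -0.094 for the lower and -0.0053 for the higher group.

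Reads of ribosomal protein genes can also match their many processed pseudogenes. In 46 of the 83 genes at least 50% of the 50-base stretches of the reference transcript also occurred in a transcript of another gene, up to 98.6% in *Rps27*, and RSEM divides such reads by estimate. The median log2 ratio was -0.072 in these 46 (38 lower) and -0.077 in the 37 with fewer shared stretches (28 lower). In the 8 genes with under 10% shared stretches 5 (62.5%) were lower, with a median of -0.062. Among these, *Rps19bp1*, which is not itself a ribosomal protein, shared none of its stretches and had a log2 ratio of -0.077. Of the pseudogenes left out by the selection, *Rpl34-ps1* had 6.24 in the control library and 7.81 in the Eomes library (0.32). *Rpl31-ps12* had 228 in the control library and 176 in the Eomes library, while *Rpl31*, at the tunnel exit, had 622 and 619.

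Both subunits had a median under 0. In the small subunit 23 of 31 canonical genes were lower, with a median log2 ratio of -0.062, and their summed RPKM changed by -4.87%. In the large subunit 40 of 46 were lower, with a median of -0.084 and a change of -6.69%. The medians of the small and large subunit differed by 0.022, a difference without a test, and after length centring they were 0.016 and -0.0054. Members were then grouped by their place on the ribosome, with groups drawn up after the values were seen.

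Stalk proteins bind the elongation factors and start their GTP hydrolysis. All 4 genes of the stalk and its base were lower, with log2 ratios of -0.20 for *Rplp1*, -0.13 for *Rplp0*, -0.12 for *Rplp2* (2219.8 and 2041) and -0.12 for *Rpl12* (2585 and 2382). Together they went from 13211 to 11885 RPKM, a change of -10.0%. Of all 77 canonical genes 63 (81.8%) were lower. Centred on GC or on length bins all 4 kept a log2 ratio under 0. Their median was then -0.056 and -0.069, against -0.12 as deposited.

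Proteins at the tunnel exit form the platform where chaperones and the signal recognition particle meet the new chain. All 6 of this group were lower, with a median log2 ratio of -0.15, from -0.19 for *Rpl23a* to -0.0060 for *Rpl31*. *Rpl35* had 2403 in the control library and 2137 in the Eomes library, a log2 ratio of -0.17, and *Rpl19* had 1890.0 and 1709.8 (-0.14). *Rpl26*, which also binds the *Trp53* mRNA, had 1558 and 1446 (-0.11). Centred on length bins 5 of the 6 stayed under 0, with a median of -0.072.

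*Rpl4*, *Rpl17* and *Rpl39* line the wall of the exit tunnel and had unequal log2 ratios. *Rpl39* had 1190.5 in the control library and 929 in the Eomes library, the lowest log2 ratio of a canonical gene at -0.36. *Rpl4* had 1772 and 1779 (0.0055) and *Rpl17* had 1418 and 1378.5 (-0.041). *Rpl39* lies on chromosome X (chrX:37082520-37085402 in the GENCODE vM21 annotation of mm10, minus strand) and shared 16.5% of its stretches with other transcripts. The other canonical genes of chromosome X, *Rpl10*, *Rpl36a* and *Rps4x*, had log2 ratios of -0.029, -0.16 and -0.028. *Rpl39* stayed at or below -0.27 under GC and length centring (-0.38 and -0.27).

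*Rpl5* and *Rpl11* join the 5S rRNA in a particle that, when free, binds Mdm2 and so steadies p53. *Rpl5* was nearly equal in the libraries (773 and 772, log2 ratio -0.0023) and *Rpl11* was lower (2070.5 and 1917, -0.11). Their reference transcripts differed in length, with 2045 bases for *Rpl5* and 833 for *Rpl11*. Centred on length bins the values were 0.038 and -0.023, and centred on GC bins -0.18 and -0.049, which turned the order of the genes.

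At the mRNA entry of the small subunit lie *Rps2*, *Rps3* and the product of *Fau*. *Rps2* had a log2 ratio of -0.095 and *Rps3*, which also takes part in DNA repair and NF-kappaB signalling, had 918 and 848 (-0.12). At the mRNA exit *Rps14* had 1856 in the control library and 1578 in the Eomes library, the lowest log2 ratio of the small subunit at -0.23. *Rpsa*, also known as the laminin receptor, had 2124 and 1920.1 (-0.15), while *Rps26* (2228 and 2217, -0.0071) and *Rps28* (1266 and 1281, 0.018) were nearly equal. The log2 ratios of the 4 genes at the mRNA exit thus ran from -0.23 to 0.018. *Rps14* was at -0.13 when centred on GC bins and at -0.15 when centred on length bins.

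*Rps6*, the classical substrate of the S6 kinases downstream of mTOR, had 1219.8 in the control library and 1225 in the Eomes library, a log2 ratio of 0.0067. Its start region above carries a run of 9 pyrimidines counted from the annotated start onward. Loss of *Rps19*, *Rpl35a* or *Rps26* causes Diamond-Blackfan anaemia in humans, a failure of red cell formation. *Rps19* had 1493 and 1327 (-0.17) and *Rpl35a* 1194 and 1114 (-0.10). *Rps26*, given above, was nearly equal in the libraries.

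The 5 lowest log2 ratios were those of *Rpl37rt*, *Rpl39*, *Rps14*, *Rplp1* and *Rpl13a*. *Rpl13a*, a large subunit protein that can leave the ribosome to silence inflammatory mRNAs, had 2607 in the control library and 2269 in the Eomes library (-0.20). At the other end stood *Rpl22l1* (0.21), *Rpl21* (0.062), *Rpl7* (1376 and 1434, 0.060), *Rpl29* (1163 and 1209, 0.056) and *Rps29* (1049 and 1083, 0.046). Apart from *Rpl22l1* no member exceeded a log2 ratio of 0.062.

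Paralogs can replace their canonical partner on the ribosome, and *Rpl22* is needed for the development of alpha-beta T cells. *Rpl22* had 236 in the control library and 212 in the Eomes library (-0.16), whereas *Rpl22l1* had 187 and 217 (0.21). *Rpl22l1* made up 44.2% of the summed level of the pair in the control library and 50.6% in the Eomes library. The genes lie at chr4:152325742-152334071 and chr3:28805436-28807424 and differ in composition, *Rpl22l1* having the lowest GC content of the set at 40.6%. Centred on GC bins *Rpl22l1* was at -0.016 and *Rpl22* at -0.18, so *Rpl22l1* kept the higher log2 ratio of the pair while its own ratio was no longer above 0.

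In another pair *Rpl36a* had 947 and 846 (-0.16) and *Rpl36al* 418 and 421 (0.013), so that the paralog took 30.6% and 33.3% of the pair, and centred on GC bins they were at -0.23 and 0.030. *Rps27* had 1483 and 1358 (-0.13) and *Rps27l*, a target of p53, 429 and 403 (-0.090), with 22.4% and 22.9% for the paralog, and centred on GC bins they were at -0.095 and -0.27. *Rpl7l1*, which works in ribosome assembly, had 101.26 and 101.78 beside the far higher *Rpl7*. *Rpl37rt* had 63.5 and 47.3 (-0.43) beside 621 and 637 for *Rpl37* (0.037), and shared 42.5% of its stretches with other transcripts. *Rpl3*, *Rpl10* and *Rpl39* were each accompanied by a paralog under the minimum, given in the opening, and *Rpl3* itself had 1797 and 1704 (-0.077) and *Rpl10* 2118 and 2075 (-0.029).

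**Figure D4:**
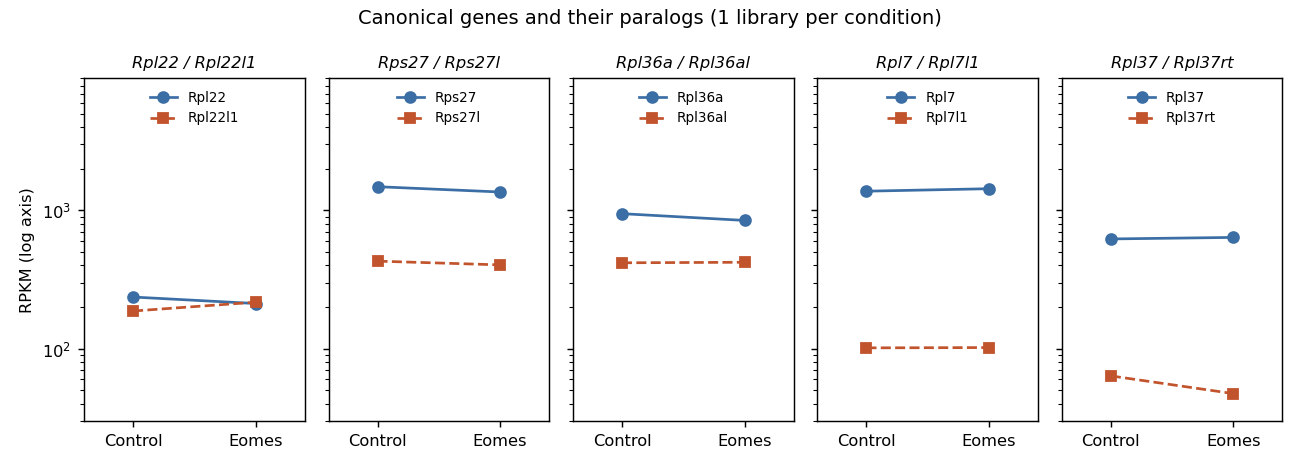
RPKM (log axis) in the control and Eomes libraries of 5 canonical genes (circles, solid lines) and their paralog or related transcript (squares, dashed lines), each pair in its own panel. The lines of *Rpl22* (236 to 212) and *Rpl22l1* (187 to 217) cross, and in the other 4 panels the canonical gene is the higher in both libraries.

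Ribosomal proteins that the symbols did not catch include *Rack1* and the product of *Fau*. *Rack1*, a scaffold for kinases on the small subunit, had 1909 in the control library and 1775 in the Eomes library (-0.11). *Fau*, made as a fusion to a ubiquitin-like protein, had 1637 and 1558 (-0.071). The ubiquitin fusion among the members, *Rps27a*, was slightly higher, with 1166 and 1192 (0.033).

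In the values as deposited, genes that build ribosomes had a median of the opposite sign to the ribosomal proteins, whereas after length centring both medians were above 0 (0.11 and 0.0044). Of 97 expressed ribosome biogenesis genes, which process rRNA and assemble subunits in the nucleolus, 68 were higher and 29 lower, with a median log2 ratio of 0.090. Of the 97, 18 were at least 1.2-fold higher (against 14.9% of expressed genes) and 0 at least 1.2-fold lower (against 15.2%). After centring on GC bins the medians were 0.092 for biogenesis and -0.045 for the ribosomal protein genes. The highest were *Nop58* of the box C/D particles (71.4 and 100.05, 0.49) and *Gnl3*, nucleostemin (44.9 and 61.1, 0.45), and the lowest *Utp3* (73.8 and 64.4, -0.20) and *Nop9* (47.2 and 43.4, -0.12). Nucleolin, *Ncl*, had 125 and 168 (0.43), nucleophosmin, *Npm1*, 933 and 1193 (0.35), and the rRNA methylase *Fbl* 321 and 330 (0.041).

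RNA polymerase I, which transcribes the rRNA genes, had 10 of 15 genes higher, with a median of 0.069, from *Polr1c* and *Polr1b* at -0.15 and -0.11 to *Ttf1* and *Twistnb* at 0.23 and 0.35. Translation initiation factors had 24 of 38 higher (median 0.050), with *Eif5* (0.40) and *Eif2s2* (0.34) highest and *Eif3k* (-0.15) and *Eif6* (-0.14) lowest, and *Pabpc1* at 0.14. Elongation and termination factors had 8 of 14 lower (median -0.039), with *Eef2* at -0.16 and *Eef1a1* at 0.11, while *Abce1* and *Etf1* were highest (0.39 and 0.30) and *Eefsec* and *Eef2* lowest (-0.17 and -0.16). After centring on GC bins the medians were 0.057 for RNA polymerase I, 0.013 for initiation and 0.018 for elongation. Mitochondrial ribosomal protein genes had 46 of 78 lower (median -0.012, and 0.014 after GC and 0.042 after length centring) and proteasome genes 27 of 47 (median -0.036, and 0.017 after length centring).

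**Figure D5:**
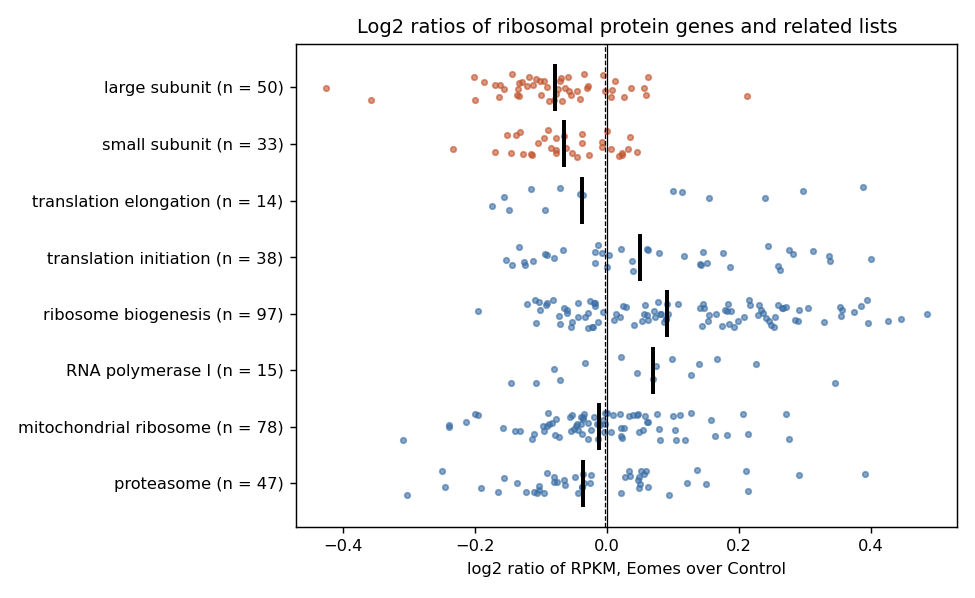
Log2 ratio of RPKM (Eomes over control) of each expressed gene of 8 lists (points), with the median of each list as a thick bar, a solid line at 0 and a dashed line at the median of all expressed genes (-0.0037). The subunit lists hold every matching symbol (50 large, 33 small), and for the values as deposited their medians lie left of 0 while that of ribosome biogenesis (0.090) lies right of it.

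Other mRNAs known to carry a TOP tract were spread to both sides. Of 20 such genes 12 (60%) were lower, against 50.5% of expressed genes, with a median log2 ratio of -0.071. They ran from -0.34 for *Vim* and -0.16 for *Eef2* to 0.24 for *Hnrnpa1* and 0.35 for *Npm1*, and *Tpt1* was at -0.075. Their median was -0.0098 after GC centring and -0.0025 after length centring. Among 17 expressed regulators of ribosome synthesis, 10 (58.8%) were lower as deposited, with a median of -0.083. After GC centring 8 were lower and the median was 0.023, and after length centring 10 were lower with a median of -0.12. Of these regulators *Myc* had 186 in the control library and 162 in the Eomes library (-0.21) and *Larp1* 119 and 129 (0.12). The highest were *Mycn* (12.1 and 16.5, 0.44) and *Mga* (0.39), and the lowest *Maf1* (-0.29) and *Eif4ebp1* (-0.27), the translation repressor released by mTOR.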

How the data were processed

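RNA was sequenced on an Illumina instrument, 1 library per condition. The authors filtered reads with SOAPnuke, mapped them with HISAT and Bowtie2 to mm10 and computed expression with RSEM. They deposited FPKM values, 1 per gene symbol, which their methods call RPKM, and no normalization between libraries is given in the sources used here. The low values showed no common step, so the depth is unknown and no counting interval can be given.

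Date-like entries among the symbols (20 control, 19 Eomes) were dropped. A floor of 0.01 stood in for smaller or unlisted values, and log2 ratios of Eomes over control were taken in Python 3.11.15 (pandas 2.3.3, scipy 1.17.1, numpy 2.4.6), with plots by matplotlib 3.10.9. A gene at 1 RPKM or more in either library counted as expressed, and folds of 1.2 and 1.5 were counted. Transcript length, GC content and positions came from GENCODE vM21, from the longest protein-coding transcript with a RefSeq match where there was one, and start regions from RefSeq (GRCm38.p6). The computation of ratios and scalings was tested on simulated data.

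Members and gene lists were chosen with earlier results of these data known, and the groups by place on the ribosome and the pairs after values were seen. Genes were named by a rule: the 5 highest by mean level, the 5 highest and 5 lowest log2 ratios, stalk, 5S particle, ubiquitin fusion, Diamond-Blackfan and paralog genes, *Rpsa*, *Rps6* and *Rack1*, members nearest the minimum, and of each related list the 2 highest and 2 lowest genes with a few fixed ones; other genes were named after their values were seen. Alternatives were pseudocounts of 0.1 and 1, other minimum values, canonical proteins only, division by the summed RPKM, removal of the trimmed mean or the median, and centring on 20 bins of GC content, level or length. A few genes that the rule names or the selection holds are counted but not reported here by name.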

Additional observations from a re-analysis of the deposited data

How the results depend on the processing

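The median log2 ratio of the ribosomal protein genes, -0.077 as deposited, was -0.045 after division by the summed RPKM, -0.045 after GC centring, -0.039 after level centring and 0.0044 after length centring, where its sign turned. The share of members under 0, 79.5%, became 67.5% with level centring and 45.8% with length centring. Without a minimum RPKM, which adds the 4 symbols at very low values, 4 members were at least 1.2-fold lower, 2 at least 1.2-fold higher and 4 past 1.5-fold. With canonical proteins only 1 was at least 1.2-fold lower, and with length centring 1, *Rpl22l1*, was at least 1.2-fold higher. The median of the mitochondrial ribosomal protein genes was 0.042 with length centring, 0.014 with GC centring and 0.020 after division by the summed RPKM, against -0.012. Signs also turned for elongation factors with GC centring (0.018), for proteasome genes with length centring (0.017) and for the small minus large subunit median over every matching symbol with GC centring (0.014 to -0.0025). Ribosome biogenesis stayed between 0.089 and 0.12, RNA polymerase I between 0.057 and 0.10 and initiation between 0.013 and 0.082 under all alternatives run. Over 38 named genes and 12 alternatives, 53 of 450 values moved by at least 0.05, 20 with GC and 33 with length centring. Signs differed for 8 of these genes with length centring, 7 with GC centring, 4 with level centring, 4 with division by the summed RPKM, 2 with the trimmed mean and 1 with the median. Apart from the symbols added without a minimum and the changed set of canonical proteins, the cause of these moves was not tested. No paired analysis was possible because each condition had 1 library. Without replicates none of these differences could be set against biological spread, and without read counts counting error could not be given either.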
